A study of Homo sapiens with 4 samples.

Results

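The circular RNAs (circRNAs) described here are the 62 circBase entries whose levels lay lower in both glucose-free libraries than in both normal libraries of HepG2 cells. They were taken from a table of 11666 circRNAs, of which 7525 carry an identifier of circBase, a public circRNA catalogue. The rule asked for reads in all 4 libraries, a mean level of at least 100 CPM (a count divided by the library's circRNA reads, times 1000000), no overlap between the groups, and a normal mean at least 1.5 times the glucose-free mean. The rule sets a further 9 identifiers aside, and 0 of them met these criteria. The rule used the levels in all 4 libraries, so every difference between glucose-free and normal cells below is a description of how the 62 were chosen and supports nothing.

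HepG2 is an established human liver cancer cell line. The study compared wild-type HepG2 cells kept without glucose for 24 h (2 libraries) with wild-type HepG2 cells under the condition labelled normal (2 libraries). Ribosomal RNA was removed and linear RNA was digested with RNase R before the libraries were made. No label states that replicates are separate cultures, so the spread between them may be technical. The table lists circRNAs and no linear transcripts, so liver markers of the cell line could not be checked in it.

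CircRNAs form when the splicing machinery joins a downstream splice site back to an upstream one, which closes the RNA into a loop. Without free ends they resist exonucleases, RNase R among them, and many are longer lived than the linear transcripts of their host genes. Some are known to bind microRNAs or proteins, and for most no function is known. Cells without glucose activate the kinase AMPK and restrain anabolic pathways such as lipid synthesis, the setting that the study's title names. The identifiers are not paired with host genes, positions or sequences in the table or in the reference tables used here. The 62 are therefore described by identifier, with no host gene or role.

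Glucose-free replicates 1 and 2 held 102420 and 58776 circRNA reads, and normal replicates 1 and 2 held 133083 and 166071. A single read was therefore worth 9.76 and 17.0 CPM in glucose-free replicates 1 and 2, and 7.51 and 6.02 CPM in normal replicates 1 and 2. Levels are reads per circRNA with no length term, so an order of levels between circRNAs is an order of read numbers. Libraries were compared pair by pair with a chi-square of their counts over the 1445 circBase circRNAs that met the criteria on reads and level. Chi-square per degree of freedom was 2.31 between the glucose-free libraries and 2.495 between the normal libraries. It was 0.902 between glucose-free replicate 2 and normal replicate 1, the lowest of the 6 pairs and at the level of counting noise, although their labels differ. The other pairs across the groups lay between 2.77 and 5.78. With RNase R treatment and values scaled to each library's circRNA reads, fewer circRNA molecules per cell and a smaller share of the recovered circRNA reads cannot be told apart.

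The 62 circRNAs made up a small part of the reads. They took 1.32% of the reads in glucose-free replicate 1 (exact 95% binomial interval 1.252% to 1.393%) and 1.76% in glucose-free replicate 2 (1.65% to 1.87%). In normal replicates 1 and 2 they took 2.32% (2.24% to 2.41%) and 2.88% (2.80% to 2.96%). The group means were 1.54% ± 0.307 in glucose-free and 2.60% ± 0.390 in normal cells (SD, n = 2 each). These intervals, like all others given, cover counting error only. The most abundant of the 62, hsa_circ_0007158, held 488 of 1353 and 431 of 1032 of these reads in glucose-free replicates 1 and 2. In the normal replicates 1 and 2 it held 1094 of 3093 and 1850 of 4776. The other 61 circRNAs together took 0.934% ± 0.126 of reads in glucose-free and 1.63% ± 0.184 in normal cells (SD, n = 2 each).

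Of the 62, 38 averaged between 100 and 200 CPM, as did 763 of the 1445 circBase circRNAs that met the criteria on reads and level. Mean levels of the 62 over the 4 libraries ran from 101.2 to 7864 CPM with a median of 161.3 CPM. In glucose-free replicates 1 and 2 the median circRNA of the set stood at 102.5 and 136.1 CPM, from 10.5 and 8 reads. In normal replicates 1 and 2 the median stood at 206.6 and 222.8 CPM, from 27.5 and 37 reads. Fewer than 10 reads were counted for 24 of the 62 in glucose-free replicate 1 and for 40 in glucose-free replicate 2, and for 0 in either normal library. Only 7 of the 62 had at least 20 reads in every library. The smallest value above 0 in the whole table is 2 reads.

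**Figure D1:**
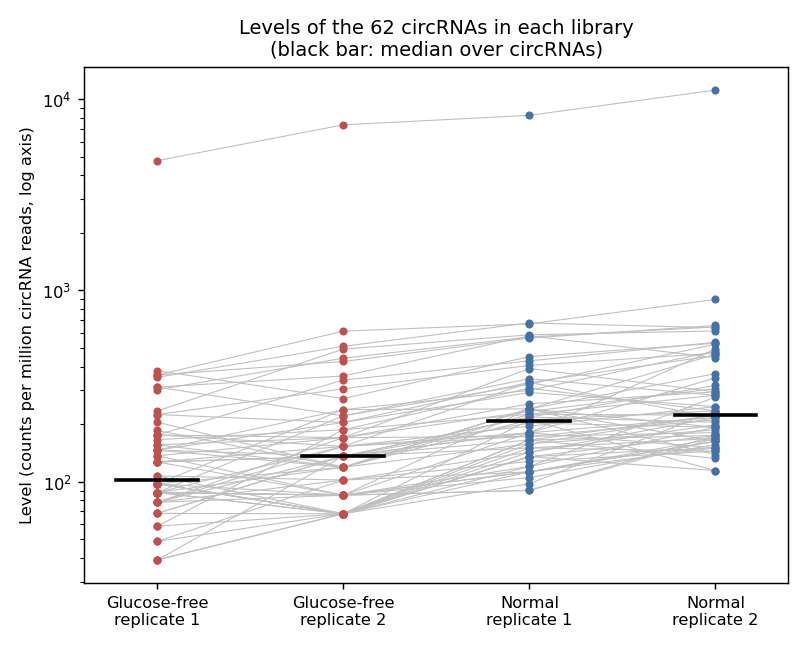
Level of each of the 62 circRNAs (CPM, log axis) in the glucose-free and normal libraries, with grey lines joining the points of a circRNA and a black bar at the median. The medians are 102.5 and 136.1 CPM in glucose-free replicates 1 and 2 and 206.6 and 222.8 CPM in normal replicates 1 and 2, and hsa_circ_0007158 stands far above the rest in every library.

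By far the best covered of the 62 was hsa_circ_0007158. Its level was 4765 and 7333 CPM in glucose-free replicates 1 and 2, against 8220 and 11140 CPM in normal replicates 1 and 2. The exact 95% Poisson interval of the count was 6657 to 8059 CPM in glucose-free replicate 2 and 7740 to 8722 CPM in normal replicate 1. These intervals of libraries of different groups overlapped, while glucose-free replicate 1 (4351 to 5207 CPM) and normal replicate 2 (10638 to 11659 CPM) stood clear of both. The glucose-free mean was 6049 ± 1816 CPM and the normal mean 9680 ± 2064 CPM (SD, n = 2 each). The fitted log2 fold change was -0.80 with a standard error of 0.28 (edgeR quasi-likelihood test, adjusted p = 0.999).

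The next 3 circRNAs in abundance averaged between 501.6 and 634.9 CPM. For hsa_circ_0091581 the level was 361.3 and 612.5 CPM in the glucose-free libraries, against 668.8 and 897.2 CPM in the normal libraries. That of hsa_circ_0003054 was 351.5 and 510.4 CPM without glucose, against 676.3 and 638.3 CPM in normal cells. The level of hsa_circ_0005954 was 361.3 and 425.3 CPM without glucose, against 563.6 and 656.3 CPM in normal cells. In all 3, glucose-free replicate 1 was the lowest library. These levels rest on 25 to 37 reads per glucose-free library and 75 to 149 per normal library.

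Below 500 CPM, hsa_circ_0052095 stood at 302.7 and 442.4 CPM without glucose, against 571.1 and 644.3 CPM in normal cells. The glucose-free values of hsa_circ_0087905, 234.3 and 493.4 CPM, lay farthest apart among the 7 circRNAs with at least 20 reads in every library, at a ratio of 2.11. Its normal values were close together, at 586.1 and 614.2 CPM. The closest glucose-free values among these 7 were those of hsa_circ_0006958, at 312.4 and 357.3 CPM (a ratio of 1.14), against 578.6 and 445.6 CPM in normal cells. Among these 7 circRNAs the normal mean was 1.53 to 1.65 times the glucose-free mean. In each of the 7, glucose-free replicate 1 lay below glucose-free replicate 2. The minimum of 20 reads favours this order, since a read was worth 17.0 CPM in glucose-free replicate 2 and 9.76 CPM in replicate 1. With the opposite order, hsa_circ_0000504 missed the minimum only through its 16 reads in glucose-free replicate 2.

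The remaining 3 of the 10 most abundant had 16 to 39 reads in the glucose-free libraries. For hsa_circ_0000504 the order of the glucose-free libraries was turned, with 380.8 and 272.2 CPM in replicates 1 and 2, against 450.8 and 529.9 CPM in normal cells. hsa_circ_0007127 had 175.7 and 340.3 CPM without glucose, against 428.3 and 535.9 CPM in normal cells, a normal mean 1.87 times the glucose-free mean. The values of hsa_circ_0047270 were 224.6 and 306.2 CPM without glucose, against 405.8 and 469.7 CPM in normal cells.

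**Figure D2:**
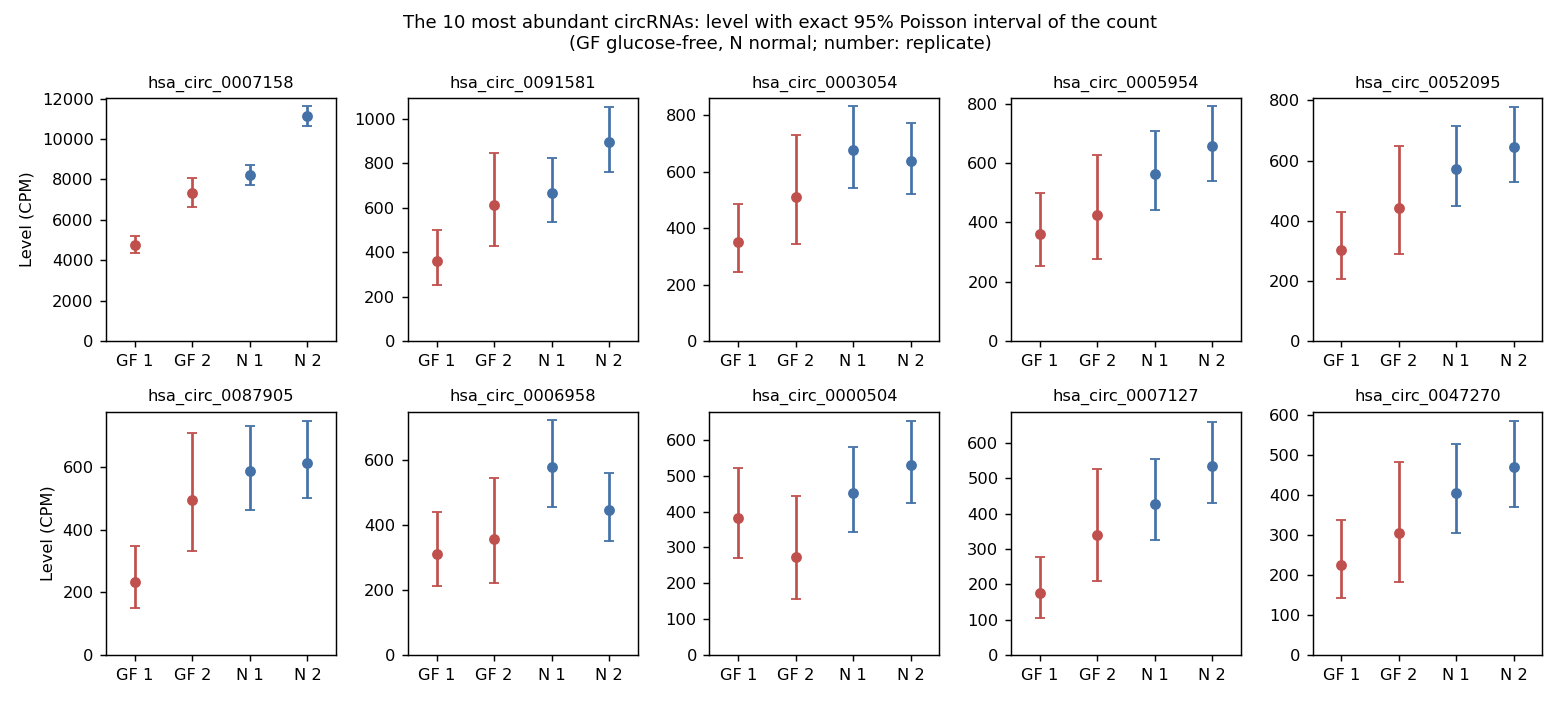
Level (CPM, linear axis from 0) of the 10 most abundant of the 62 circRNAs in glucose-free (GF) and normal (N) replicates 1 and 2, with the exact 95% Poisson interval of each count. In every panel the interval of the higher glucose-free library overlaps that of the lower normal library, including hsa_circ_0007158 at 6657 to 8059 against 7740 to 8722 CPM.

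The groups did not overlap because the rule required it, and the gap between them was small in reads. The higher glucose-free library would have reached the lower normal level with a median of 3.32 more reads, and 28 of the 62 circRNAs needed at most 3 more. Of these, 7 needed at most 1 more read. Among them, hsa_circ_0003270 had 238.2 CPM in glucose-free replicate 2, against 240.5 CPM in normal replicate 1, a gap of 0.133 reads. The widest gaps were 52.2 reads, for hsa_circ_0007158, and 12.2 reads, for hsa_circ_0001608. The exact 95% intervals of the counts in the higher glucose-free and the lower normal library overlapped for 62 of the 62 circRNAs. This overlap was not counted over all circBase circRNAs that met the criteria on reads and level. Whether it is particular to the 62 was therefore not tested.

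The 4 circRNAs whose normal mean was at least 2.5 times the glucose-free mean all averaged between 100 and 200 CPM. The 5 circRNAs with the smallest p in the edgeR fit were hsa_circ_0008011, hsa_circ_0003304, hsa_circ_0001608, hsa_circ_0001434 and hsa_circ_0016728. hsa_circ_0008011 had 39.1 and 68.1 CPM without glucose, from 4 reads in each library, against 157.8 and 186.7 CPM in normal cells, from 21 and 31 reads. Its normal mean was 3.22 times the glucose-free mean, the largest ratio of the 62, with a log2 fold change of -1.82 and a standard error of 0.47 (edgeR adjusted p = 0.999). For hsa_circ_0003304 the glucose-free libraries held 4 reads each and the normal libraries 22 each, or 39.1 and 68.1 against 165.3 and 132.5 CPM. The glucose-free levels of hsa_circ_0001434 were 48.8 and 68.1 CPM, from 5 and 4 reads, against 120.2 and 192.7 CPM in normal cells.

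The other 2 of these 5 had more reads without glucose. hsa_circ_0001608 stood at 175.7 and 170.1 CPM in the glucose-free libraries, from 18 and 10 reads, against 390.7 and 295.1 CPM in normal cells, from 52 and 49 reads. Its normal mean was 1.98 times the glucose-free mean, with a log2 fold change of -1.07 and a standard error of 0.33 (edgeR adjusted p = 0.999). hsa_circ_0016728 stood at 87.9 and 153.1 CPM without glucose, from 9 reads in each library, against 330.6 and 216.8 CPM in normal cells.

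Over the 62, the normal mean was 1.502 to 3.22 times the glucose-free mean, with a median of 1.73. It was at least 2 times for 15 circRNAs and below 1.6 times for 20. Just inside the limit of 1.5 stood hsa_circ_0000504, hsa_circ_0004836 and hsa_circ_0004920, at 1.502, 1.504 and 1.507 times. Just outside it, at 1.4979, 1.4977 and 1.4952 times, stood hsa_circ_0008500, hsa_circ_0043329 and hsa_circ_0001811. At the limit of 100 CPM, hsa_circ_0003304, hsa_circ_0004868 and hsa_circ_0004920 lay inside with means of 101.2, 103.5 and 103.8 CPM. Those next outside were hsa_circ_0071705, hsa_circ_0005585 and hsa_circ_0009110, with means of 99.8, 98.9 and 98.7 CPM.

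The glucose-free libraries differed in how far they lay below the normal mean. Relative to the normal mean, the level was 0.528 times in glucose-free replicate 1 and 0.618 times in glucose-free replicate 2, as medians over the 62. At or below the ratio of 1 to 1.5 lay 51 of the 62 in glucose-free replicate 1 and 39 in glucose-free replicate 2, and 28 in both. A 1.5-fold or larger difference between the glucose-free libraries themselves was found for 22 of the 62, with replicate 2 higher in 18 and replicate 1 higher in 4. The widest such spread was that of hsa_circ_0007693, at 39.1 and 136.1 CPM in glucose-free replicates 1 and 2, from 4 and 8 reads.

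**Figure D3:**
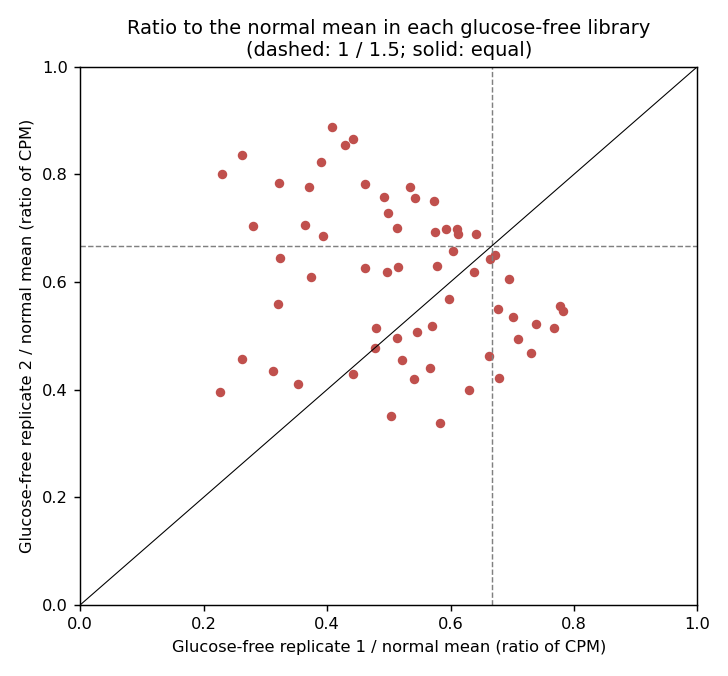
Level in glucose-free replicate 1 (x axis) and glucose-free replicate 2 (y axis) as a ratio to the normal mean, 1 point for each of the 62 circRNAs, with dashed lines at 1 / 1.5 and a solid line where both are equal. The 28 points in the lower left field lie at or below 1 / 1.5 in both libraries, and the others in only 1 of them.

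Which replicate is lower within a group is no criterion of the rule. It is read from the same levels and is not independent of the rule, so it is described without a test. Glucose-free replicate 1 lay below replicate 2 for 36 of the 62 circRNAs (58.1%), against 54.1% of the 1445 circBase circRNAs that met the criteria on reads and level. Normal replicate 1 lay below normal replicate 2 for 44 of the 62 (71.0%), against 45.9% of the 1445. Among the 193 circRNAs that met the same rule in the higher direction, normal replicate 1 was the lower for 21.2%. Glucose-free replicate 1 was the lower for 36.8% of those 193. With CPM rescaled by the trimmed mean of M values (TMM), which aligns the bulk of circRNAs between libraries, the shares for the normal libraries were 75.8% of the 62 and 52.6% of the 1445. Those for the glucose-free libraries were 51.6% of the 62 and 46.3% of the 1445 with TMM. With median-of-ratios (RLE) size factors they were 31 of the 62 and 43.3% of the 1445. Over the 1445, which glucose-free library was more often the lower thus depended on the scaling. Among the 62 the share fell to an even split with RLE and did not turn. A normal replicate 2 at least 1.5 times as high as normal replicate 1 was found for 12 of the 62, and the converse for 3. The extreme was hsa_circ_0000734, at 175.7 and 153.1 CPM in the glucose-free libraries, against 180.3 and 493.8 CPM in normal replicates 1 and 2.

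Ordered by level, the most frequent pattern was glucose-free replicate 1 lowest, then glucose-free replicate 2, normal replicate 1 and normal replicate 2. It was seen in 25 of the 62 circRNAs, hsa_circ_0007158 and hsa_circ_0091581 among them. The same normal order with glucose-free replicate 2 lowest was seen in 19, such as hsa_circ_0000504. With normal replicate 2 below normal replicate 1, glucose-free replicate 1 was lowest in 11, such as hsa_circ_0003054, and glucose-free replicate 2 in 7, such as hsa_circ_0001608.

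Against the rest of the table, the rule held for 4.29% of the 1445 circBase circRNAs that met the criteria on reads and level. The mirrored rule, with both glucose-free libraries above both normal libraries and the same fold, held for 193 of them (13.4%). Without the fold, 12.9% of the 1445 lay lower and 24.8% higher in both glucose-free libraries. Among 193 circRNAs without a circBase identifier that met the same criteria, the rule held for 8 (4.15%) and the mirrored rule for 39 (20.2%). The share of lower circRNAs was 4.98% of those with a mean of 100 to 200 CPM, 4.31% at 200 to 500 CPM, 2.22% at 500 to 1000 CPM and 1.20% from 1000 CPM. The counts behind these shares were 38 of 763, 20 of 464, 3 of 135 and 1 of 83. For the mirrored rule the shares were 15.1%, 12.1%, 8.89% and 12.05%.

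**Figure D4:**
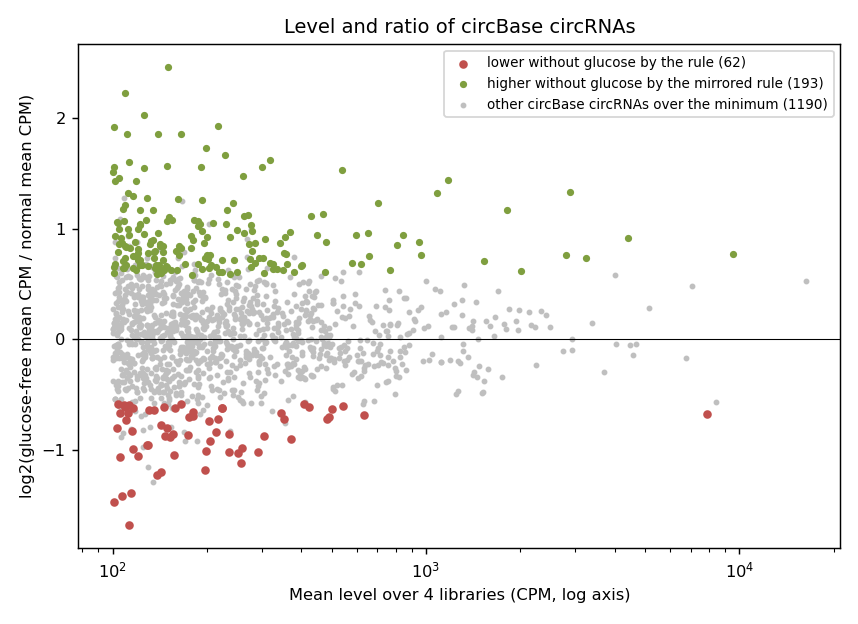
Ratio of the glucose-free mean to the normal mean (log2) against the mean level over the 4 libraries (CPM, log axis) for the 1445 circBase circRNAs that met the criteria on reads and level. The 62 lower circRNAs (red) lie mostly below 500 CPM, and only hsa_circ_0007158 lies above 1000 CPM.

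The numbers of lower and higher circRNAs depended on how the libraries were scaled. Over the 1445 circRNAs, the median log2 ratio of the glucose-free to the normal mean was 0.09 in the deposited CPM, -0.01 after TMM scaling and -0.07 after RLE scaling. With TMM scaling 109 circRNAs met the rule and 131 the mirrored rule, and with RLE scaling 138 and 110. The lower circRNAs were thus 24.3% of both sets in the deposited CPM, 45.4% with TMM and 55.6% with RLE. All 62 were among the 109 and among the 138, which the factors nearly fixed. The RLE factors were 1.0084 and 0.888 for glucose-free and 1.0095 and 1.106 for normal replicates 1 and 2. With these no circRNA could be lost through overlap or fold. The TMM factors lay close to this order, at 1.011 and 0.920 for glucose-free and 1.008 and 1.066 for normal replicates 1 and 2. CircRNAs with reads in all 4 libraries held 78.4% and 80.9% of the reads in glucose-free replicates 1 and 2, against 73.4% and 71.0% in normal replicates 1 and 2. The part of this in the split was not tested.

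**Figure D5:**
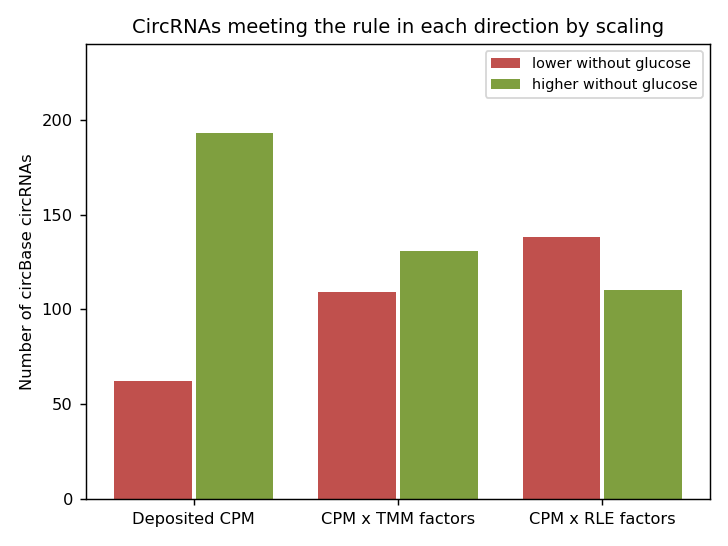
Number of circBase circRNAs that met the rule (lower without glucose, red) and the mirrored rule (higher, green) in the deposited CPM and after TMM and RLE scaling. Lower against higher is 62 against 193, 109 against 131 and 138 against 110.

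The 62 were chosen to be low in the 2 libraries with the fewest circRNA reads. The set found with the mirrored rule was chosen to be high in them. The part of this in the values that follow was not tested. A smaller part of the 62 than of that set had at least 20 reads in every library, 7 of the 62 against 48 of the 193. Exact 95% intervals of the neighbouring libraries did not overlap for 0 of the 62, against 8 of the 193. Intervals were compared for these sets only, and not over all circBase circRNAs that met the criteria on reads and level. The median level was 161.3 CPM in the lower and 170.2 CPM in the higher set, and the median fold was 1.73 and 1.81 times. These are descriptions of sets chosen by value, and the difference was not tested.

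No circRNA of the set passed the test of all circRNAs that met the filter on low counts. The quasi-likelihood test of edgeR ran on 2803 circRNAs, the 62 among them, and 0 of the 62 passed an adjusted p of 0.05, as did 0 of all 2803 in the lower direction (0.0%). At an unadjusted p under 0.05 there were 11 of the 62, where 1.28% of the 2803 were lower at that p, and nothing is read from this since the rule used the same contrast. The median log2 fold change of the 62 was -0.88, against -0.03 over all 2803, and the values ran from -1.82 to -0.65. With DESeq2, 0 of the 62 passed the adjusted threshold. Before adjustment its p was under 0.05 for 0 of the 62, where 0.382% of the 10989 tested were lower at that p. With limma on log2(CPM + 1), 0 of the 62 passed, against 0.464% of the 2803 in the lower direction, and 5 were at an unadjusted p under 0.05, against 1.03%. With a pseudocount of 0.1 in place of 1, 0 of the 62 passed, against 0.571%. Without glucose-free replicate 1 or without glucose-free replicate 2, edgeR called 0 of the 62, against 0.629% of 3818 and 1.78% of 3938 circRNAs in the lower direction.

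Where the fit held only circRNAs read in all 4 libraries, some of the 62 passed the threshold. With all 4 libraries 0 passed, and 34 were at an unadjusted p under 0.05, where 3.14% of the 2131 tested were lower at that p. Without glucose-free replicate 2, 6 passed an adjusted p of 0.05, against 0.558% of the 2688 tested in the lower direction. These were hsa_circ_0002186, hsa_circ_0002282, hsa_circ_0003270, hsa_circ_0007127, hsa_circ_0007158 and hsa_circ_0087905, named here after their values were seen. Without normal replicate 1, hsa_circ_0000734 passed, against 0.082% of the 2439 tested. With the replicate number as a block, hsa_circ_0007158 passed, with a log2 fold change of -0.79 and a standard error of 0.15 (edgeR adjusted p = 6.38e-05). In that fit 0.0939% of the 2131 tested passed in the lower direction. Over all 2131, 17 passed, and 15 of them were higher without glucose. That block leaves 1 residual degree of freedom, as does leaving out a library, where the lone library takes its spread from the other group. The rule used the same contrast and asked for reads in all 4 libraries, so nothing is read from the counts in these fits.

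Glucose-free replicate 2 and normal replicate 1, the closest pair of libraries, were both part of the rule. By the rule, each of the 62 was lower in glucose-free replicate 2, at a median of 0.697 times normal replicate 1, while the median over the 1445 was 1.07 times. The 61 circRNAs other than hsa_circ_0007158 had 601 reads in glucose-free replicate 2, where 883 would be counted at the level of normal replicate 1. When glucose-free replicate 2 was left out, 221 circRNAs met the rule, 51 of the 62 among them. Leaving out glucose-free replicate 1 gave 129, with 39 of the 62 among them. The rule held for 157 without normal replicate 1 and for 67 without normal replicate 2, with 48 and 31 of the 62 among them.

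Another 48 circBase circRNAs met every criterion but had a listed 0 in a glucose-free library. Of these, 23 were listed at 0 in glucose-free replicate 1 alone, 18 in glucose-free replicate 2 alone and 7 in both. What a listed 0 means is not known, since no source used here states a minimum, and these 48 are not among the 62.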

How the data were processed

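CircRNAs of 4 HepG2 libraries were analysed from 1 table. Per the labels' protocols, total RNA was depleted of ribosomal RNA, digested with RNase R and made into stranded libraries. The count columns hold read counts as the authors deposited them, without normalization. The CPM columns, headed tpm, equal the deposited count divided by the column total times 1000000. The submitters' processing notes name hg19 and DESeq2 without a role. An aligner or circRNA caller is not given in the sources used here.

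These 62 circRNAs, the alternatives and the lists were chosen with earlier results of these data known. Counts were fitted with edgeR 4.0.16 (R 4.3.3, quasi-likelihood, TMM, filterByExpr, library sizes over the circRNAs that passed, Benjamini-Hochberg adjustment), and the test was checked on simulated data. Standard errors were taken as the size of the log2 fold change over the square root of F. Alternatives were DESeq2 1.42.0, limma 3.58.1 on log2 of the deposited CPM plus 1 or 0.1, other scalings and filters, a replicate block and each library left out. Poisson and binomial intervals are exact at 95% (scipy 1.17.1). Named circRNAs were the 10 most abundant, the 5 with the smallest p, those with at least 20 reads in every library by ratio of the group means and of the glucose-free libraries, and the 3 on each side of each limit. Examples of single patterns were chosen after their values were seen. Same-numbered libraries share only a number, so no pairing was used in the main fit. The replicate block and a crossed pairing were alternatives only.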

Additional observations from a re-analysis of the deposited data

How the results depend on the processing

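The number of circRNAs meeting the rule depended on its limits. It was 151 with a minimum of 50 CPM and 24 with 200 CPM, 137 with a lower fold limit and 15 with a fold of 2. It was 109 with TMM and 138 with RLE scaling, 110 when reads in all 4 libraries were not required, 7 with at least 20 reads everywhere, and 67 to 221 when 1 library was left out. After RLE scaling 110 met the mirrored rule. The share of 4.29% became 2.22% at 500 to 1000 CPM and 1.20% from 1000 CPM. The mirrored rule, which counts the opposite direction, held for 13.4%. Glucose-free replicate 1 was the lower in 58.1% of the 62, 51.6% with TMM, and in 100% of the 7 with at least 20 reads everywhere. That minimum asks for a higher CPM in glucose-free replicate 2 than in replicate 1 and so favours this order.

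The count of 0 of the 62 past an adjusted p of 0.05 was also found with DESeq2, both limma fits and RLE. The count was the same with total reads only, column totals, no filter, the stricter filter and the replicate block on all circRNAs. Over all circRNAs tested, limma called 16 with a pseudocount of 1 and 19 with 0.1, and the other fits of this list called 0. Among circRNAs with reads in all 4 libraries, 1 passed with the replicate block, and 0 to 6 when 1 library was left out. The same-numbered libraries' deviations correlated at -0.173, and a crossed pairing, added after seeing the data, gave 0 on either set of circRNAs. The median log2 fold change was -1.09 to -0.75 when 1 library was left out, -1.03 to -0.71 when this was done in fits of circRNAs read in all 4 libraries, and -1.001 to -0.79 in the other fits. The fits without normal replicate 2 held 60 of the 62. For the 23 named circRNAs of the set, 429 of 437 fitted values under alternatives kept their sign and side of the threshold, and 8 kept their sign and passed it. The rule places both glucose-free libraries below both normal ones, so the kept sign follows from the rule and supports nothing. Depth limits the set: 43 of the 62 had fewer than 10 reads in some library.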
